A study of Homo sapiens with 34 samples.

Results

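H1 human embryonic stem cells (ESCs), an established line, were examined at day 6 of differentiation toward cardiomyocytes (CMs), when WT cultures are at the cardiac progenitor stage, with and without an shRNA against the transcription factor ZEB2. The comparison held 4 libraries of the 34 in the series, namely 2 from ZEB2 shRNA cells and 2 from WT cells, and the study's methods call the replicates biological. WT denotes H1 cells infected with a lentivirus that carried an shRNA against GFP or no shRNA. ZEB2 shRNA cells are a single line, selected with puromycin and taken forward because its vector gave the best knockdown of those tested by real-time PCR. All 4 cultures received the GSK3β inhibitor CHIR99021 during the first 24 h and the WNT inhibitor IWP2 from day 2 to day 5, and were harvested before insulin was added at day 7. The 4 libraries of NKX2-5 and ZNF503 shRNA cells of the same day, lines made and treated in the same way, share the estimate of the spread, and ZEB2 shRNA and WT cells at days 0, 2 and 10 serve only to follow the genes found at day 6.

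ZEB2 (zinc finger E-box binding homeobox 2, also known as SIP1) is a DNA-binding repressor with clusters of zinc fingers that each bind the half-site CACCT. It recruits corepressors such as CtBP and the NuRD complex and binds receptor-activated SMADs, the signal carriers of NODAL, activin, TGFβ and BMP. It is best known for repressing E-cadherin and other epithelial genes. NODAL signals through activin receptors and SMAD2/3, switches on its own gene and its inhibitors LEFTY1 and LEFTY2, and drives mesendoderm formation through EOMES before the cardiac lineage is set aside.

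Values are raw read counts per RefSeq transcript, with 1 row kept for each gene symbol, and levels are given as CPM, counts scaled to the size of the library with TMM factors. The total count was 24174327 and 42821020 in the WT libraries and 61508899 and 13806093 in the ZEB2 shRNA libraries, so that 3 counts correspond to between 0.0489 and 0.220 CPM across the 8 day 6 libraries. All 9 progenitor markers were read in the 4 libraries, with a summed level of 1560 to 2018 CPM in WT cells and 971 to 1043 CPM in ZEB2 shRNA cells. MEF2C was the largest part of that sum and of its difference, with 1099 and 788 CPM in WT and 285 and 241 CPM in ZEB2 shRNA cells. The 6 CM markers summed to between 32565 and 40136 CPM in WT cells and to between 15583 and 16377 CPM in ZEB2 shRNA cells. Most of that sum was TTN, at 29613 and 24188 CPM in WT and 11546 and 11089 CPM in ZEB2 shRNA cells. The pluripotency marker NANOG was at 0.214 and 0.282 CPM in WT and at 0.326 and 0.367 CPM in ZEB2 shRNA cells. Other pluripotency markers were higher. LIN28A was at 1002 and 1010 CPM in WT and at 985 and 1083 CPM in ZEB2 shRNA cells, and DPPA4 and ZFP42 lay between 58.6 and 76.4 CPM. The blood markers GATA1 and PTPRC had 0 counts in the 4 libraries, while HBE1 was at 4.03 and 8.42 CPM in WT and at 10.8 and 10.4 CPM in ZEB2 shRNA cells. These are bulk samples, so fewer cells of a type and less RNA per cell cannot be told apart in any of the results that follow.

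ZEB2 itself (chr2:145121931-145278624, GRCh37) was lowered, not lost, in the counts of the cells made to deplete it. The study reports a stronger reduction of the target mRNAs by real-time PCR. In the counts, the ZEB2 level was 95.7 and 92.0 CPM in WT cells and 53.4 and 56.9 CPM in ZEB2 shRNA cells. The ZEB2 shRNA libraries lay below both WT libraries, as in 4510 of the 16441 genes tested. They retained 58.7% ± 2.59 (SD, n = 2) of the WT mean. The log2 fold change was -0.77 ± 0.12 (SE), with an adjusted p of 0.00136 by edgeR's quasi-likelihood test with Benjamini-Hochberg adjustment, the test behind every adjusted p below. When all 30 libraries were fitted together the change was of the same size and missed the threshold (adjusted p = 0.108). In the other lines of the same day ZEB2 was lower still, at 20.2 and 20.0 CPM in NKX2-5 shRNA cells and 10.7 and 12.5 CPM in ZNF503 shRNA cells. ZEB2 shRNA cells lay above the mean of those lines by 1.85 ± 0.10 (SE) on the log2 scale (adjusted p = 2.94e-08).

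At the study's day 6 thresholds, an 8-fold change at 1% FDR, 76 of 16441 genes tested were called (0.462%). Of these, 39 were higher in ZEB2 shRNA cells (0.237% of all genes tested) and 37 were lower (0.225%). With no fold threshold and 5% FDR, 1810 genes passed (11%), 933 of them higher (5.67%) and 877 lower (5.33%). Gene lists below are counted at 5% FDR, and "rose" or "fell" means that this threshold was passed. The median log2 fold change over all genes tested was 0.01. The calls at the 8-fold threshold came to 49 without the shallower ZEB2 shRNA replicate 2, which left 16 lower. Without ZEB2 shRNA replicate 1 the number called higher was 22, and without WT replicate 1 the number called lower was 21.

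The NODAL pathway held several of the largest rises. Of 24 tested genes of the pathway 10 rose and 0 fell, with a median log2 fold change of 0.46, and 6 rose when ZEB2 shRNA replicate 1 was left out. At the 8-fold threshold 5 were called, namely NODAL, its inhibitors LEFTY1, LEFTY2 and CER1, and its target EOMES. In the ligand NODAL (chr10:72191692-72207707, GRCh37) WT libraries held 2.14 and 4.24 CPM and ZEB2 shRNA libraries 115 and 125 CPM. This was a log2 fold change of 5.17 ± 0.29 (adjusted p = 1.18e-06), with both ZEB2 shRNA libraries above both WT libraries, as in 28.5% of all genes tested.

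RefSeq promoter windows were available for NODAL, CER1 and EOMES, and are shown because these called genes carry the finding and ZEB2 has a known half-site that can be looked up in them. Each line gives the 250 bases before the transcription start, 5′ to 3′ on the gene's strand, with CACCT or its reverse complement AGGTG in capitals. The windows are chr10:70441682-70441931, minus strand (NODAL), chr9:14722734-14722983, minus strand (CER1), chr3:27722324-27722573, minus strand (EOMES), chr2:68871398-68871647, minus strand (BMP10) and chr2:88067575-88067824, plus strand (SMYD1), all in GRCh38.p14. BMP10, a called gene that fell, and SMYD1, a muscle gene that fell by less, are shown because their windows differ in the half-site.
NODAL: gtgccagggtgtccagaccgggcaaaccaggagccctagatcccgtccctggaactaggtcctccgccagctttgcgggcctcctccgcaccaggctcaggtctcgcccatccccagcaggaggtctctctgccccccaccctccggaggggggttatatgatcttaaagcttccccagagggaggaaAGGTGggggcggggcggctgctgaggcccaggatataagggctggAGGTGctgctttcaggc
CER1: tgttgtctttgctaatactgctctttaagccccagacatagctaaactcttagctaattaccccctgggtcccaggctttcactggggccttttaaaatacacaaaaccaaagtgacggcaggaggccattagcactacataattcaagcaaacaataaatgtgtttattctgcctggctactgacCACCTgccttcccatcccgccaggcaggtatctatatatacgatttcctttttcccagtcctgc
EOMES: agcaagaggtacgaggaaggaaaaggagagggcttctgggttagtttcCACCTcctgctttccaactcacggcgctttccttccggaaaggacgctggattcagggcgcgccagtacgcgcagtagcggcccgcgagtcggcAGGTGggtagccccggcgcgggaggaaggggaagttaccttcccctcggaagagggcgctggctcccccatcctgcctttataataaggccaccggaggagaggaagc
BMP10: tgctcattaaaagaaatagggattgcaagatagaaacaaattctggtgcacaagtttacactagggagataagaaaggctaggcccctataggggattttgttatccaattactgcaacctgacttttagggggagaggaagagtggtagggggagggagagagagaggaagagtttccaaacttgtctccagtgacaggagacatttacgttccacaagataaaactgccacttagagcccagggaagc
SMYD1: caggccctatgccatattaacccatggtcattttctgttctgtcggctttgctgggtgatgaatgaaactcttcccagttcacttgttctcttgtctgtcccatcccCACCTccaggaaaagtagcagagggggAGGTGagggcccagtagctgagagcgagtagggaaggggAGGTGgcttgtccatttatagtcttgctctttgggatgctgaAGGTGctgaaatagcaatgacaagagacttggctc
The NODAL window held 2 half-sites, starting 62 and 17 bases before the transcription start. EOMES also held 2, at 202 and 108 bases before the start, the latter within the longer E-box CACCTG when read on the other strand. CER1 held 1, at 64 bases before the start and likewise part of CACCTG, and BMP10 held 0. SMYD1 held 4 and TNNT2, which fell too, held 1 within an E-box. Over the promoter table of 27305 windows, 45.3% held the half-site on either strand and 17.5% the E-box, which always contains the half-site. Among the called genes with a window, 15 of 25 that were higher (60.0%) and 5 of 28 that were lower (17.9%) held the half-site, beside 43.6% of the 12564 tested genes with a window. The E-box was in 28.0% of the windows of genes called higher and in 10.7% of those called lower, beside 16.1% of tested genes. A match describes letters in a window and does not show that ZEB2 is bound there.

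**Figure D1:**
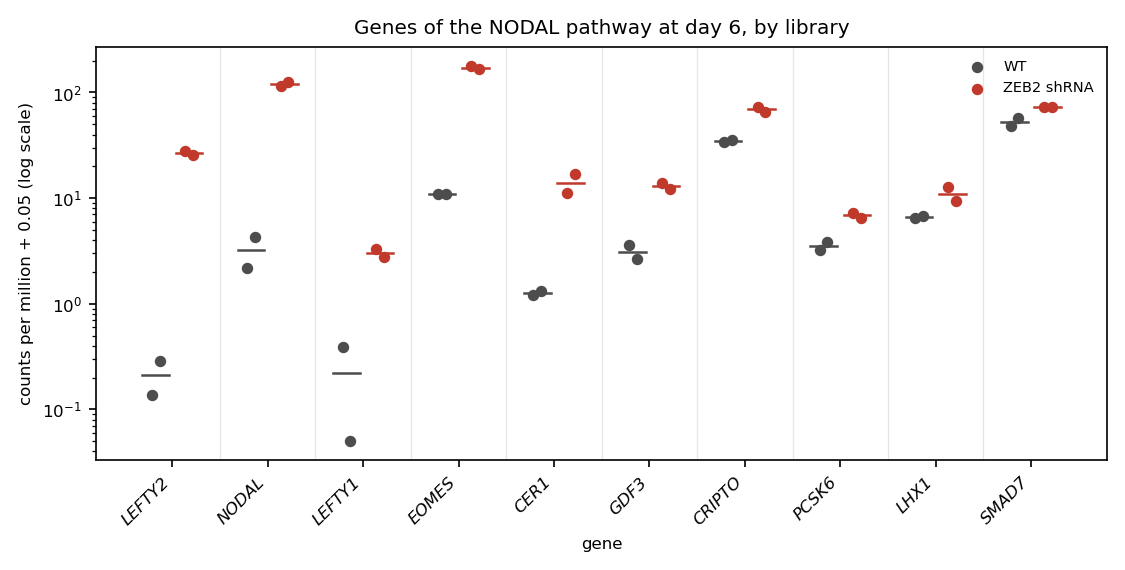
Level of the 10 NODAL pathway genes that passed 5% FDR, in CPM with 0.05 added, on a log axis. Each point is a library (2 of WT in grey, 2 of ZEB2 shRNA in red) and each bar is a mean. In all 10 genes the red points lie above the grey points, as in 28.5% of all genes tested. Choosing genes by 5% FDR favours such separation, so it is no further evidence. The log2 fold change ranges from 0.46 for SMAD7 to 7.20 for LEFTY2.

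LEFTY2, a secreted inhibitor that NODAL signalling induces, had the largest rise of any gene that the naming rule took. It went from 0.0857 and 0.235 CPM in WT to 28.0 and 25.6 CPM in ZEB2 shRNA cells (log2 fold change 7.20 ± 0.36, adjusted p = 5.11e-07). The neighbouring gene LEFTY1 was at 0.343 and 0 CPM in WT and at 3.22 and 2.72 CPM in ZEB2 shRNA cells (4.48 ± 0.85, adjusted p = 0.00446). LEFTY1 and LEFTY2 are close copies of each other, so reads may have been split between them, and the call of LEFTY1 was lost without ZEB2 shRNA replicate 1 (adjusted p = 0.0595). CER1, a secreted antagonist of NODAL, BMP and WNT, stood at 1.16 and 1.27 CPM in WT and at 11.1 and 16.8 CPM in ZEB2 shRNA cells. The T-box factor EOMES, which specifies mesendoderm, was at 10.8 and 10.9 CPM in WT and at 179 and 165 CPM in ZEB2 shRNA cells, a change of 3.98 ± 0.20 on the log2 scale (adjusted p = 5.11e-07). In each of these 4 genes both ZEB2 shRNA libraries were above both WT libraries, as in 28.5% of all genes tested.

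The other 5 genes of the pathway that rose changed less, and are named here after their values were seen. GDF3, a NODAL-like ligand, had a log2 fold change of 2.10 ± 0.32. The coreceptor CRIPTO (TDGF1) was higher by 1.00 ± 0.12, the proprotein convertase PCSK6 by 0.96 ± 0.19, the head-organizer factor LHX1 by 0.76 ± 0.22 and the inhibitory SMAD7 by 0.46 ± 0.13. The calls of PCSK6, LHX1 and SMAD7 were lost without ZEB2 shRNA replicate 1 (adjusted p = 0.0801, 0.339 and 0.159), and those of LHX1 and SMAD7 also without WT replicate 1 (0.162 and 0.25) and in other fits. Among the receptors, ACVR1B differed by 0.14 and ACVR2A by -0.04, and the SMAD partner FOXH1 differed by -0.31 ± 0.15, none of which passed (adjusted p = 0.239 for FOXH1). Other mesendoderm markers did not pass either. TBXT was at 0.300 and 0.424 CPM in WT and at 0.326 and 0.882 CPM in ZEB2 shRNA cells, GSC differed by 0.35, and MIXL1, at 1.54 and 0.471 CPM against 2.98 and 3.45 CPM, missed the threshold (adjusted p = 0.0608).

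Among epithelial genes, 15 of 32 rose and 1 fell (median log2 fold change 0.59). The largest rise was that of KRT7, a keratin of simple epithelia, from 7.97 and 11.6 CPM in WT to 51.5 and 66.0 CPM in ZEB2 shRNA cells (2.57 ± 0.20, adjusted p = 7.15e-06). GRHL2, a transcription factor that maintains the epithelial state, went from 17.9 and 22.2 CPM to 56.9 and 57.3 CPM (1.51 ± 0.15). CDH1, which encodes E-cadherin, was at 26.3 and 38.4 CPM in WT and at 69.4 and 58.8 CPM in ZEB2 shRNA cells (0.98 ± 0.16, adjusted p = 0.0019). RAB25, an epithelial trafficking GTPase, was higher by 0.91 ± 0.17, a call lost without ZEB2 shRNA replicate 2 (adjusted p = 0.05). The member that fell, PKP2, is a desmosomal plakophilin that heart muscle also uses (-0.40 ± 0.11), and it passed neither without WT replicate 1 nor without either ZEB2 shRNA library. The number of epithelial genes that rose was 6 without WT replicate 1, 9 without ZEB2 shRNA replicate 1, 5 without ZEB2 shRNA replicate 2 and 9 when all 30 libraries were fitted together.

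Mesenchymal genes moved in both directions, with 3 of 23 higher, 4 lower and a median of 0.00. TWIST1, a bHLH factor of mesenchyme, fell from 12.9 and 13.1 CPM to 1.89 and 1.18 CPM (-2.99 ± 0.28, adjusted p = 2.7e-05). ZEB1, the paralogue of ZEB2 that binds the same half-site, fell from 74.0 and 70.7 CPM to 33.7 and 28.8 CPM (-1.20 ± 0.18, adjusted p = 0.000929). S100A4, a calcium-binding protein of motile cells, went from 11.4 and 9.15 CPM to 2.59 and 1.18 CPM, and the fibrillar collagen gene COL3A1 from 176 and 328 CPM to 87.2 and 93.3 CPM. The gelatinase gene MMP2 moved the other way, from 10.0 and 20.9 CPM to 36.2 and 39.2 CPM (1.27 ± 0.27). COL3A1 and MMP2 each lost their call without either of the ZEB2 shRNA libraries, with adjusted p values of 0.0721 and 0.059 for COL3A1 and 0.0518 and 0.0696 for MMP2. The count of mesenchymal genes that rose was 1 without WT replicate 1 and 0 without either ZEB2 shRNA library. Of the 19 tested corepressors and SMADs that are known partners of ZEB2, 0 passed at 5% FDR in either direction (edgeR), beside 11% of all genes tested. With so few genes, a count of 0 does not show that they were unchanged. Of the 19, 4 had an unadjusted p under 0.05 (edgeR), and DESeq2 called 1 lower. SMAD2 differed by -0.28 ± 0.10 (adjusted p = 0.121) and CHD4, the NuRD helicase, by -0.28 ± 0.10 (adjusted p = 0.106).

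**Figure D2:**
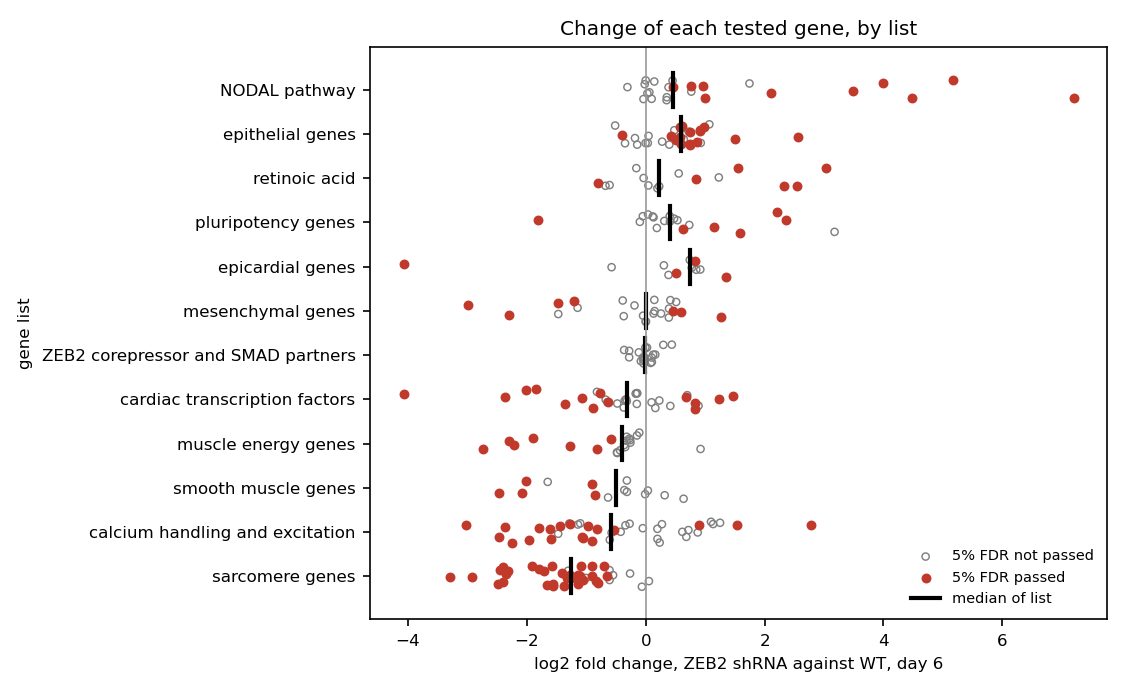
Log2 fold change of ZEB2 shRNA against WT at day 6 (x axis) for each tested gene of 12 gene lists (y axis). Filled points passed 5% FDR, open points did not, and the black bar is the median of the list. NODAL and epithelial genes lie mostly to the right of 0, with medians of 0.46 and 0.59, and sarcomere genes to the left, with a median of -1.26.

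Cardiac transcription factors were split. Of 33 tested, 5 rose and 9 fell, with a median of -0.32. With any 1 library left out between 1 and 3 rose, and 5 fell without WT replicate 1 or without either ZEB2 shRNA library. MEF2C, which drives muscle gene expression, showed 1099 and 788 CPM in WT and 285 and 241 CPM in ZEB2 shRNA cells (-1.84 ± 0.20, adjusted p = 7.53e-05). SMYD1, a muscle methyltransferase needed for sarcomere assembly, dropped from 332 and 252 CPM to 59.5 and 53 CPM (-2.37 ± 0.19, adjusted p = 1.11e-05). HOPX, a homeodomain-only cofactor, was at 2.49 and 2.42 CPM in WT and at 0.554 and 0.735 CPM in ZEB2 shRNA cells (-2.01 ± 0.34), and did not pass without ZEB2 shRNA replicate 1 (adjusted p = 0.0659). TBX18, a factor of the epicardium and sinus horn that is present at a low level and was singled out after its values were seen, was at 0.60 and 0.424 CPM in WT and at 0.0326 and 0 CPM in ZEB2 shRNA cells. It passed at 5% FDR (-4.07 ± 0.93, adjusted p = 0.0132) and missed the threshold without WT replicate 1 or without either ZEB2 shRNA library.

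Of the 9 core progenitor factors, MEF2C, NKX2-5 and TBX20 fell and HAND1 rose. ISL1, the marker of the second heart field, was at 185 and 144 CPM in WT and at 136 and 126 CPM in ZEB2 shRNA cells, a difference of -0.32 ± 0.13 that did not pass (adjusted p = 0.154). GATA4 differed by 0.23 ± 0.12 and GATA6 by 0.16 ± 0.11, with adjusted p values of 0.288 and 0.392. TBX5, the first heart field factor, differed by -0.82 ± 0.30 (adjusted p = 0.114) and HAND2 by -0.48 ± 0.17 (adjusted p = 0.105). NKX2-5, the core cardiac homeobox factor, was at 83.3 and 49.3 CPM in WT and at 36.4 and 34.7 CPM in ZEB2 shRNA cells. Its change of -0.89 ± 0.22 passed at 5% FDR (adjusted p = 0.0199), as did that of TBX20 (-0.63 ± 0.17, adjusted p = 0.0289). Neither call held without WT replicate 1, without either ZEB2 shRNA library or in the fit of 30 libraries, and without WT replicate 1 the change of NKX2-5 was -0.47. HAND1, which marks the left ventricular and extraembryonic lineages, rose from 60.3 and 64.0 CPM to 108 and 112 CPM (0.83 ± 0.16, adjusted p = 0.00537). TBX1, a factor of the pharyngeal second heart field, went from 1.93 and 1.69 CPM to 5.37 and 4.48 CPM. The call of HAND1 was lost without ZEB2 shRNA replicate 2 (adjusted p = 0.0578) and that of TBX1 without ZEB2 shRNA replicate 1 (adjusted p = 0.0554).

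**Figure D3:**
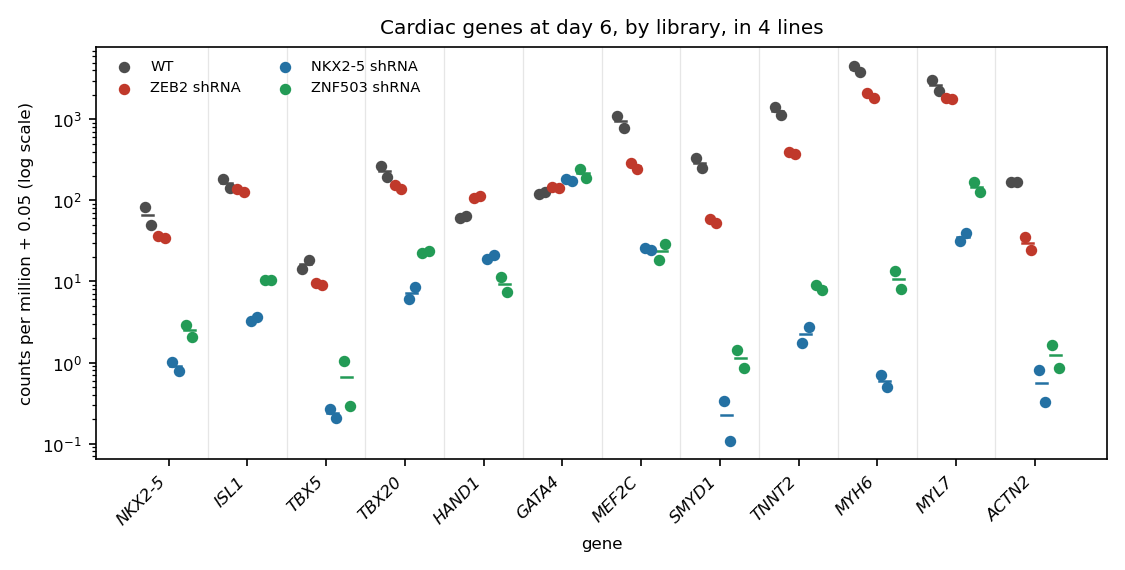
Level of 12 cardiac genes at day 6 in CPM with 0.05 added, on a log axis, in 4 lines. Each point is a library (2 a line) and each bar is a mean. ZEB2 shRNA libraries (red) lie close to or moderately below WT (grey) in most genes, with TNNT2 at 395 and 375 CPM against 1399 and 1123 CPM, while NKX2-5 shRNA (blue) libraries hold 1.70 and 2.70 CPM and ZNF503 shRNA (green) libraries 9.07 and 7.82 CPM of it.

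Sarcomere genes fell as a group. Of 41 tested genes for contractile and sarcomere proteins 32 fell and 0 rose, with a median log2 fold change of -1.26, and in every fit in which 1 library was left out at least 24 fell. TNNT2, the cardiac troponin T gene, was at 1399 and 1123 CPM in WT and at 395 and 375 CPM in ZEB2 shRNA cells (-1.71 ± 0.15, adjusted p = 2.2e-05). ACTN2, which encodes the Z-disc protein α-actinin, went from 171 and 169 CPM to 35.7 and 24.0 CPM (-2.48 ± 0.24). The titin-anchoring TCAP, the member with the largest fall, went from 7.67 and 5.04 CPM to 0.668 and 0.588 CPM (-3.29 ± 0.39, adjusted p = 0.000176). The changes of TNNT2, MYH6 and TNNC1 missed 5% FDR when all 30 libraries were fitted together, with adjusted p values of 0.0809, 0.324 and 0.076.

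The fall was uneven among contractile proteins. MYH6, the atrial and embryonic myosin heavy chain, retained more of its level, with 4569 and 3863 CPM in WT and 2101 and 1851 CPM in ZEB2 shRNA cells (-1.09 ± 0.18). The ventricular chain MYH7 had a similar change of -1.05 ± 0.16. Light chains ranged from MYL3 at -1.79 ± 0.27 and MYL4 at -1.32 ± 0.17 to MYL7 at -0.55 ± 0.17, which did not pass (adjusted p = 0.0593). TNNI3, the adult cardiac troponin I, fell by 2.44 on the log2 scale and TNNC1, shared with slow muscle, by 1.28. TTN, the giant spring titin, went from 29613 and 24188 CPM to 11546 and 11089 CPM. TNNT1 was among the 9 that did not pass.

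Genes of calcium handling and excitation fell in 16 of 40 cases and rose in 3, with a median of -0.59. SRL (sarcalumenin), a calcium-binding protein of the sarcoplasmic reticulum, dropped from 27.9 and 19.5 CPM to 3.26 and 2.35 CPM (-3.02 ± 0.31, adjusted p = 4.96e-05). PLN, the inhibitor of the SERCA pump, went from 115 and 117 CPM to 22.4 and 19.4 CPM (-2.47 ± 0.17). KCNE1, a subunit of the slow delayed rectifier channel, was at 3.34 and 3.04 CPM in WT and at 0.554 and 0.735 CPM in ZEB2 shRNA cells, and missed the threshold without ZEB2 shRNA replicate 1 (adjusted p = 0.0501). The ryanodine receptor RYR2 fell by 1.27 and the L-type channel CACNA1C by 1.44 on the log2 scale. In the other direction, the T-type calcium channel gene CACNA1G, of pacemaker and embryonic heart cells, rose from 0.557 and 0.659 CPM to 3.97 and 4.63 CPM (2.79 ± 0.36), and the inward rectifier KCNJ2 and the natriuretic peptide NPPB rose by 1.53 and 0.89. Without ZEB2 shRNA replicate 2 the number that fell was 10, and NPPB passed neither without WT replicate 2 nor without either ZEB2 shRNA library.

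Muscle energy genes gave 7 lower and 0 higher of 20 (median -0.40). They included the oxygen carrier MB, myoglobin (11 and 6.87 CPM against 1.5 and 1.03 CPM, -2.73 ± 0.34), creatine kinase CKM (-2.22 ± 0.29) and the muscle glycogen phosphorylase PYGM (-1.90 ± 0.27). In smooth muscle genes 5 of 14 fell and 0 rose (median -0.50), a count that stayed at 5 whichever library was left out. ACTA2, the smooth muscle actin that early CMs also express, went from 545 and 361 CPM to 107 and 108 CPM (-2.07 ± 0.19), and the thin-filament LMOD1 from 78.1 and 62.3 CPM to 21.4 and 12.4 CPM. PLN, counted under calcium handling too, was another of the 5. The smooth muscle markers TAGLN, MYH11 and CNN1 did not pass, with log2 fold changes of -0.01, -0.32 and -0.63 (adjusted p = 0.985, 0.681 and 0.0959).

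The study's own sets were counted too. Its clusters were drawn from these samples and so give no independent evidence of direction. Of the genes in cluster III, which is active in WT cells from day 6, 57 of 74 fell and 0 rose (median -1.13). At the 8-fold threshold 0 of the 74 were called. Cluster V, active at day 10, gave 119 lower and 5 higher (median -1.09), and cluster IV, also active at day 10, 68 lower and 25 higher of 261 (median -0.36). Without ZEB2 shRNA replicate 2 the count of lower genes in cluster IV was 34, and cluster V had between 2 and 3 higher without WT replicate 1 or either ZEB2 shRNA library. Among the candidate cardiogenic genes, which the study took from earlier mouse and human data, 19 of 97 fell and 10 rose (median -0.09), and leaving out WT replicate 1 or either ZEB2 shRNA library brought the lower count to 9, while 5 rose without ZEB2 shRNA replicate 1.

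Signalling genes outside the NODAL pathway changed in both directions. Of TGFβ and activin genes 3 of 20 rose and 3 fell. TGFB2, the ligand that drives endocardial and outflow tract remodelling, was at 497 and 420 CPM in WT and at 136 and 118 CPM in ZEB2 shRNA cells (-1.85 ± 0.13, adjusted p = 3.73e-06). The activin antagonist FST went up from 49.3 and 64.6 CPM to 175.4 and 203.2 CPM (1.73 ± 0.15) and PMEPA1, a feedback inhibitor induced by SMAD2/3 signalling, from 2.74 and 4.16 CPM to 12.8 and 13.9 CPM (1.92 ± 0.26). In the BMP pathway 5 of 29 rose and 5 fell, and without WT replicate 1 or either ZEB2 shRNA library 2 rose and 3 fell. BMP10, the ligand of trabecular myocardium, was at 7.80 and 4.12 CPM in WT and at 0.423 and 0.441 CPM in ZEB2 shRNA cells (-3.77 ± 0.42, adjusted p = 9.92e-05), BMP5 fell by 1.37 on the log2 scale, and the target ID1 rose from 186 and 164 CPM to 366 and 380 CPM (1.09 ± 0.10). The other ID genes did not rise. ID4 fell from 202 and 174 CPM to 129 and 124 CPM (-0.57 ± 0.14, adjusted p = 0.0211), and ID2 (-0.34) and ID3 (-0.06) did not pass. The call of BMP5 was lost when all 30 libraries were fitted together (adjusted p = 0.162).

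Of the WNT ligands 3 of 10 rose and 3 fell. WNT2, a ligand of the early heart tube, was at 6.82 and 3.67 CPM in WT and at 0.570 and 0.294 CPM in ZEB2 shRNA cells (-3.40 ± 0.49), and the non-canonical ligand WNT5A went from 159 and 116 CPM to 51.0 and 41.7 CPM (-1.56 ± 0.16). WNT6, WNT4 and WNT5B rose, by 2.35 ± 0.58, 2.07 ± 0.41 and 1.49 ± 0.27. The calls of WNT4 and WNT5B were lost without ZEB2 shRNA replicate 1 (adjusted p = 0.0859 and 0.0561), and that of WNT6 without either WT library or without ZEB2 shRNA replicate 2 (0.0681, 0.112 and 0.2). Of WNT feedback genes and inhibitors 4 of 22 rose and 1 fell. LGR5, the R-spondin receptor and a WNT target, rose from 4.97 and 5.20 CPM to 75.7 and 65.1 CPM (3.79 ± 0.22, adjusted p = 1.18e-06), while its ligand RSPO3 went from 100 and 109 CPM to 39.2 and 45.5 CPM (-1.31 ± 0.12). Of FGF genes 2 of 23 rose and 3 fell, 21.7% of the list beside 11% of all genes tested. Those that fell included FGF10 of the second heart field (-1.57 ± 0.19) and the ERK phosphatase DUSP6, a readout of FGF signalling (623 and 431 CPM against 230 and 202 CPM, -1.28 ± 0.17). The feedback inhibitor SPRY4, another readout of FGF signalling, rose from 38.2 and 29.5 CPM to 59.8 and 51.1 CPM (0.72 ± 0.19), a call lost without WT replicate 2 or either ZEB2 shRNA library (adjusted p = 0.15, 0.203 and 0.073). Without ZEB2 shRNA replicate 1 the WNT ligands that rose came to 1 and the WNT feedback genes that fell to 2. The FGF genes that rose came to 1 without WT replicate 1 and to 0 without either ZEB2 shRNA library.

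Retinoic acid genes rose in 5 of 15 cases and fell in 1 (median 0.23). RDH10 and ALDH1A3, which make retinaldehyde and retinoic acid in turn, went from 15.7 and 17.3 CPM to 96.7 and 96.5 CPM (RDH10, 2.55 ± 0.15, adjusted p = 1.21e-06) and from 0.343 and 1.32 CPM to 7.31 and 7.71 CPM (ALDH1A3, 3.04 ± 0.42). CYP26A1, which degrades retinoic acid, rose from 1.84 and 2.12 CPM to 10.9 and 9.04 CPM. The receptor gene RARB, the member that fell, differed by -0.81 ± 0.18, and missed the threshold without WT replicate 1 or either ZEB2 shRNA library. Notch genes gave 1 higher of 18 and 0 lower, a share of 5.56% beside 11% of all genes tested. With WT replicate 2 or ZEB2 shRNA replicate 1 left out these were 0 higher and 1 lower, and 0 passed in either direction without ZEB2 shRNA replicate 2. Of 12 hedgehog genes 3 rose, IHH, PTCH1 and CDON, and 0 remained without WT replicate 1 or without ZEB2 shRNA replicate 2.

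Among lists for other lineages, pluripotency genes rose in 5 of 19 cases and fell in 1 (median 0.41). L1TD1, an RNA-binding protein of ESCs, went from 97.2 and 95.5 CPM to 419 and 471 CPM (2.21 ± 0.12, adjusted p = 1.03e-06). SOX2 fell from 2.44 and 2.49 CPM to 0.896 and 0.294 CPM, POU5F1 differed by 0.73 and did not pass, and the summed level of 5 pluripotent cell markers was 1138 to 1151 CPM in WT and 1122 to 1241 CPM in ZEB2 shRNA cells. Most of that sum was LIN28A, at 1002 and 1010 CPM in WT and 985 and 1083 CPM in ZEB2 shRNA cells. Without WT replicate 1 or ZEB2 shRNA replicate 1 the pluripotency genes that rose came to 3, and SOX2 did not pass without ZEB2 shRNA replicate 2 (adjusted p = 0.0869). Blood genes rose in 5 of 17 cases and fell in 1, among them GYPB, a red cell membrane protein (1.29 and 3.22 CPM against 14.7 and 13.3 CPM). GYPB belongs to a family of close copies, as do the globins HBG1 and HBG2 among the other genes that rose, so their separate values are uncertain, and without WT replicate 1 or either ZEB2 shRNA library 2 blood genes rose and 0 fell.

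Endothelial genes gave 3 lower and 0 higher of 23, with CLDN5, the endothelial tight junction claudin, at 1.37 and 0.894 CPM in WT and 0.0652 and 0 CPM in ZEB2 shRNA cells. Without WT replicate 2 or either ZEB2 shRNA library 1 endothelial gene fell. Of 11 epicardial genes 3 rose and TBX18 fell (median 0.74), and 0 rose without WT replicate 1 or ZEB2 shRNA replicate 2. Endoderm and hepatic genes rose in 3 of 30 cases and fell in 2, a share of 16.7% beside 11% of all genes tested. SOX17 was among those that rose (5.40 and 7.41 CPM against 12.3 and 19.2 CPM). The fetal serum protein AFP was among those that fell (93.9 and 184 CPM against 28.0 and 47.4 CPM). The WT libraries differed in this list: the 7 endoderm markers summed to 275 and 545 CPM in WT and to 259 and 353 CPM in ZEB2 shRNA cells, and without WT replicate 2, 14 of the 30 genes rose. The endoderm genes that fell came to 4 without WT replicate 1 and to 1 without any other library. Of 16 neural genes 3 rose and 3 fell: ELAVL4, a neuronal RNA-binding protein, went from 0.300 and 0.518 CPM to 5.90 and 5.07 CPM, and DCX, a microtubule protein of migrating neurons, from 10.7 and 8.68 CPM to 1.66 and 1.32 CPM. With ZEB2 shRNA replicate 2 left out, 1 neural gene fell. Cell cycle genes rose in 4 of 39 cases and fell in 0, a share of 10.3% beside 11% of all genes tested. The CDK inhibitor CDKN2B (1.41 and 2.54 CPM against 19.9 and 18.1 CPM), which overlaps an antisense RNA, and cyclin D2 (CCND2, 0.95 ± 0.10) were among the 4. Fewer cell cycle genes rose without WT replicate 1 or ZEB2 shRNA replicate 2. HOX and CDX genes gave 0 of 10 at 5% FDR by edgeR, beside 11% of all genes tested, with 3 at an unadjusted p under 0.05. DESeq2 called 1 higher, and edgeR called some without WT replicate 2.

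Several of the most changed genes belong to none of the pathway and cell type lists. NR0B1, an orphan nuclear receptor of ESCs and steroidogenic tissue, rose from 0.214 and 0.353 CPM to 11.4 and 10.1 CPM (5.16 ± 0.47, adjusted p = 2.29e-05). ITPRID1 went from 0 and 0.118 CPM to 4.90 and 5.36 CPM and NDST4, a heparan sulfate sulfotransferase, from 0.129 and 0.306 CPM to 3.62 and 5.22 CPM. The secreted metalloprotease ADAMTS8, a member of cluster IV, rose from 2.70 and 2.24 CPM to 41.9 and 35.7 CPM (3.99 ± 0.29). UMODL1 had 3 counts in all in WT and 91 in ZEB2 shRNA cells, a ratio of 26.6 (8.83 to 131 by its 95% counting interval). KRT16P3, SLC35F4 and 2 further keratin 16 pseudogenes rose as well, and reads of the pseudogenes cannot be told apart with certainty.

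Among the other large falls, A2M, a secreted protease inhibitor, went from 15 and 13.3 CPM to 0.407 and 0.441 CPM (-5.07 ± 0.30, adjusted p = 1.18e-06). HSPB2, a small heat shock protein of muscle that lies within a readthrough transcript, dropped from 21.4 and 16.1 CPM to 1.07 and 0.808 CPM. LRRN3 fell from 28.3 and 23.3 CPM to 1.21 and 2.2 CPM and the complement protease MASP1 from 28.3 and 21.7 CPM to 2.77 and 1.91 CPM. The regulator of the sodium pump FXYD1 (3.77 and 1.93 CPM against 0.0977 and 0 CPM) and the laminin chain LAMA4 (3.30 and 2.31 CPM against 0.130 and 0.147 CPM) were near the limit of detection in ZEB2 shRNA cells. HSPB2, LRRN3, MASP1 and LAMA4 are members of cluster V and FXYD1 of cluster IV. The changes of LAMA4, CRB1 and KY did not pass 5% FDR without ZEB2 shRNA replicate 1, with adjusted p values of 0.124, 0.126 and 0.0859, that of LAMA4 missed it without ZEB2 shRNA replicate 2 too (adjusted p = 0.0507), and that of KY did not pass without ZEB2 shRNA replicate 2 or WT replicate 1 either (adjusted p = 0.0631 and 0.0637).

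Some of the called genes already differed between ZEB2 shRNA and WT cells before differentiation. At day 0, 6 of the 30 genes called higher at day 6 that could be tested were higher (beside 2.48% of all genes tested), 1 was lower, PI15, and 7 of 23 called lower were lower (beside 1.46%). The 6 were EOMES, CER1, ALDH1A3, FOXQ1, LY6K and GAL. EOMES was at 2.24 and 2.62 CPM in WT and 5.59 and 4.58 CPM in ZEB2 shRNA cells at day 0 (1.07 ± 0.24, adjusted p = 0.0318), and CER1 at 3.30 and 4.73 CPM against 11.3 and 10.2 CPM (1.42 ± 0.26, adjusted p = 0.0109). IAH1, a predicted esterase, had 626 counts in the 2 WT libraries and 0 in the 2 ZEB2 shRNA libraries at day 6, at least 68.9-fold lower when 3 counts in each library are taken as the floor. It was lower in ZEB2 shRNA cells at day 0 (-5.03, adjusted p = 0.0178), at 0 and 0.0143 CPM against 0.413 and 0.127 CPM in WT. At day 2 (-6.42, adjusted p = 0.00149) it was at 0 and 0.0253 CPM against 0.959 and 2.05 CPM. With ZEB2 shRNA levels at the floor, the sizes of these changes are uncertain. IAH1 was also low in ZNF503 shRNA cells at day 6, at 0.0997 and 0.0794 CPM, but not in NKX2-5 shRNA cells, at 6.72 and 8.79 CPM. MIR4458HG, a noncoding RNA, had 0 counts in ZEB2 shRNA and ZNF503 shRNA cells at day 6 against 154 in WT, at least 16.5-fold lower than WT by the same floor. CCDC125, TRIM61, LOC441666, ZNF572 and CCDC152 fell at days 0, 2 and 6 alike, and are named after their values were seen. For CCDC125 the log2 fold change was -5.08, -4.43 and -3.76 in that order.

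To ask when the differences arose, the called genes were read in ZEB2 shRNA and WT libraries of other days, which take no part in the day 6 values. At day 2, 0 of the 32 genes called higher at day 6 that could be tested rose (5% FDR, edgeR, beside 0.206% of all genes tested, and 4 with an unadjusted p under 0.05), and 7 of the 24 called lower fell, beside 0.285%. These 7 were IAH1, MIR4458HG and the 5 genes named after them. At day 10, 16 of 33 that were called higher also rose (beside 10.5% of all genes) and 24 of 34 called lower also fell (beside 7.68%). A test of the difference between the day 6 and day 2 effects found 39 of 17355 genes past 8-fold and 1% FDR (0.225%). For the genes named here this test reuses the day 6 values by which they were chosen, so its direction is not independent of that choice.

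For NODAL and EOMES this was seen in the levels themselves. NODAL was at 154 and 156 CPM in WT and 152 and 143 CPM in ZEB2 shRNA cells at day 2, and EOMES at 599 and 655 CPM in WT and 613 and 632 CPM in ZEB2 shRNA cells. By day 6 WT cells held the low levels of both genes given above, while ZEB2 shRNA cells held levels nearer to those of day 2, with each day scaled on its own. EOMES in ZEB2 shRNA cells was still below its day 2 level, at 179 and 165 CPM. CER1 did not stay near its day 2 level, and went from 2093 and 2104 CPM to 11.1 and 16.8 CPM in ZEB2 shRNA cells. LEFTY1 went from 7.77 and 7.83 CPM to 3.22 and 2.72 CPM in those cells. The day 6 effect exceeded the day 2 effect by 5.22 ± 0.30 on the log2 scale for NODAL and by 3.98 ± 0.23 for EOMES (adjusted p = 2.33e-08 for each). LEFTY2 had a day 2 level of 3.08 and 4.10 CPM in WT and 2.43 and 2.68 CPM in ZEB2 shRNA cells, below the 28.0 and 25.6 CPM that ZEB2 shRNA cells held at day 6. By day 10 EOMES was still higher in ZEB2 shRNA cells (5.01, adjusted p = 0.0105), whereas NODAL (1.81, adjusted p = 0.0835) and LEFTY2 (-1.28, adjusted p = 0.194) did not pass. CDH1 had 243 and 246 CPM in WT and 255 and 246 CPM in ZEB2 shRNA cells at day 2, and at day 10, 28.2 and 11.2 CPM in WT and 191 and 163 CPM in ZEB2 shRNA cells.

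**Figure D4:**
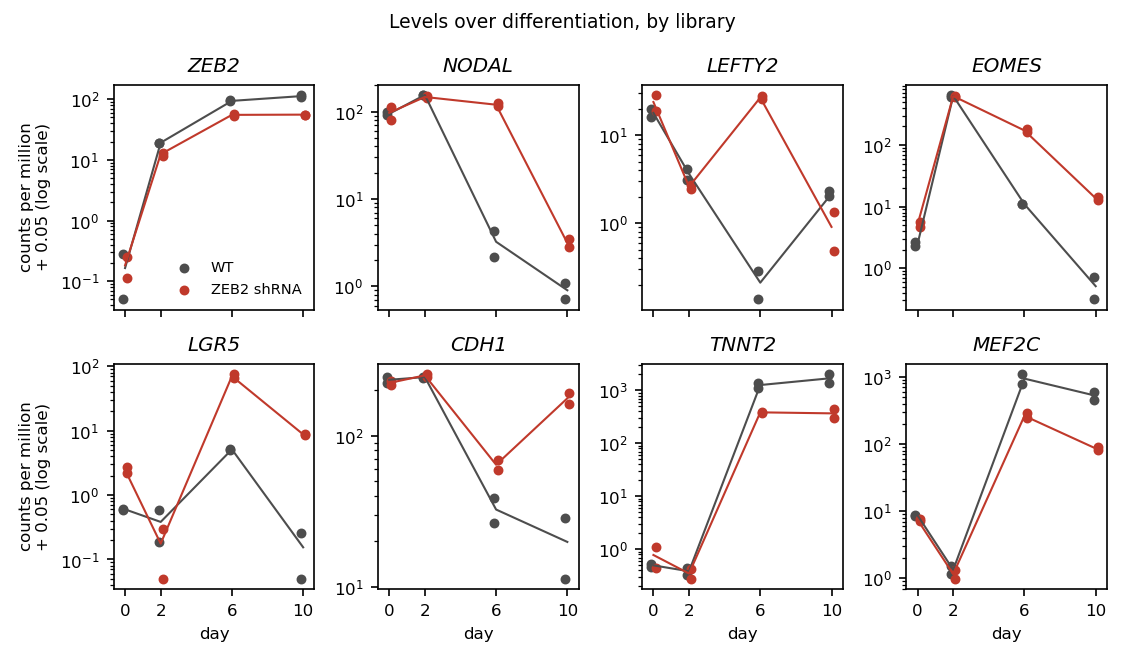
Level of 8 genes at days 0, 2, 6 and 10 in CPM with 0.05 added (log axes that differ between panels). Points are libraries, 2 for each line and day, and lines join the means of WT (grey) and ZEB2 shRNA cells (red). NODAL and EOMES lie together at day 2 and apart at day 6, with 115 and 125 CPM of NODAL in ZEB2 shRNA cells against 2.14 and 4.24 CPM in WT.

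The other knockdown lines of day 6 were compared with the same WT libraries, so their values are set side by side and no overlap of calls is given. NODAL was at 7.19 and 10.5 CPM in NKX2-5 shRNA cells and 28.5 and 20.1 CPM in ZNF503 shRNA cells, that is higher than WT by 1.43 and 2.87 on the log2 scale and lower than in ZEB2 shRNA cells. LEFTY2 was at 0.0361 and 0.0586 CPM and at 0.199 and 0.0794 CPM, differences from WT of -1.75 and -0.42 that did not pass (adjusted p = 0.0579 and 0.618), and EOMES at 3.76 and 5.80 CPM and at 17 and 12.5 CPM. Tested against the mean of the other 2 lines in the same fit, ZEB2 shRNA cells had 3.03 ± 0.20 more NODAL, 8.28 ± 0.30 more LEFTY2 and 4.35 ± 0.15 more EOMES on the log2 scale. The adjusted p values were 1.25e-07, 6.23e-10 and 6.23e-10. In that test 51.7% of all genes passed 5% FDR. KRT7, LGR5 and L1TD1 were likewise higher in ZEB2 shRNA cells than in the other lines, by 3.43, 5.18 and 4.07, whereas CDH1 was not distinguished from them (-0.29 ± 0.14, adjusted p = 0.11) and was above WT in all 3 lines.

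Several named cardiac genes kept levels nearer to WT in ZEB2 shRNA cells than in the other lines, and BMP10 did not. TNNT2 was lower than WT by 1.71 on the log2 scale in ZEB2 shRNA cells, beside a log2 fold change of -9.11 in NKX2-5 shRNA and -7.22 in ZNF503 shRNA cells. ISL1, at 136 and 126 CPM in ZEB2 shRNA cells, was at 3.18 and 3.60 CPM in NKX2-5 shRNA cells and at 10.4 CPM in both ZNF503 shRNA libraries. Against the mean of the other lines ZEB2 shRNA cells were higher by 6.46 ± 0.15 for TNNT2, 9.70 ± 0.20 for MYH6, 4.46 ± 0.12 for ISL1 and 3.43 ± 0.16 for MEF2C (adjusted p of 4.2e-11, 3.38e-11, 6.85e-11 and 7.26e-09). BMP10 was lower than WT by 3.77 on the log2 scale in ZEB2 shRNA cells, beside a log2 fold change of -1.57 in NKX2-5 shRNA and -1.54 in ZNF503 shRNA cells, and so lay below the mean of the other lines (-2.22 ± 0.40, adjusted p = 0.00053). GATA4 was below that mean too (-0.45 ± 0.11, adjusted p = 0.00408), but for another reason of position. In ZEB2 shRNA cells it was above WT by 0.23, which did not pass, so the mean of the other lines lay further above WT.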

How the data were processed

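Per the labels and the study's methods, total RNA was sequenced with a stranded kit, and reads were aligned by the authors to hg19 (GRCh37) with TopHat2 2.0.14, Bowtie2 2.2.1.0 and SAMtools 0.1.19.0. The deposited values are raw counts per RefSeq accession, which the authors obtained with RSeQC, and whether counting used strand is not stated in the sources used here, so overlapping and antisense genes may share reads. Of 41627 accessions, 40281 (96.8%) were matched to a gene symbol, and the rest held 2.90% of counts. The accession with the largest total stood for each of 23185 symbols. Of the 34 libraries, 4 of day 10 carry 1077 values more than there are accessions and were not used.

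Day 6 differences were tested in R 4.3.3 with edgeR 4.0.16 (quasi-likelihood test, TMM, filterByExpr, prior count 0.125, Benjamini-Hochberg adjustment) on the 8 libraries of that day. Other days were fitted separately, and the difference between the effects of days 2 and 6 in a fit of both. Alternatives used DESeq2 1.42.0, the edgeR exact test, other filters, other sets of libraries, a replicate block and each library left out. Total counts of the day 6 libraries ranged from 13806093 to 61508899, and intervals and floors cover counting error only.

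Named genes were ZEB2, the 12 called genes with the largest rise and the 12 with the largest fall (libraries not overlapping, at least 1 CPM in the higher group), up to 4 members of each list with the largest change at 5% FDR (or, where a list had none, its 2 members with the highest level), and core progenitor and sarcomere markers. GDF3, CRIPTO, PCSK6, LHX1, SMAD7, TBXT, GSC, MIXL1, the receptors, FOXH1, RAB25, PKP2, TBX18, RYR2, CACNA1C, KCNJ2, NPPB, TTN, TNNT1, RARB, POU5F1, LIN28A, DPPA4, ZFP42, HBE1, ID2, ID3, ID4, TAGLN, MYH11, CNN1, ZEB1, WNT5B, SPRY4 and the genes named only for other days were added after their values were seen. A few genes that the rule takes are not reported here. The comparison, its members and the gene lists were chosen with earlier results of these data known. Gene coordinates are those of GRCh37 and promoter windows those of RefSeq in GRCh38.p14.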

Additional observations from a re-analysis of the deposited data

Results flagged for a closer look

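For 16 of the genes named for their day 6 change, the effect of ZEB2 shRNA differed between day 2 and day 6 by the interaction test at 8-fold and 1% FDR (edgeR). Each value below is the day 6 effect minus the day 2 effect, on the log2 scale. The genes were chosen by the same day 6 values that the test uses, so its direction is not independent of that choice. No explanation was tested.

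In the NODAL pathway the difference was 7.65 for LEFTY2, 5.22 for NODAL, 4.95 for LEFTY1, 3.98 for EOMES and 3.39 for CER1. The other genes with a more positive effect at day 6 were the nuclear receptor NR0B1 (5.56), ITPRID1 (5.47), UMODL1 (5.26), the neuronal RNA-binding protein ELAVL4 (4.66) and the keratin pseudogene KRT16P3 (4.19).

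More negative effects at day 6 were found for FXYD1 (-4.96), the small heat shock protein HSPB2 (-4.70), the sarcomere gene TCAP (-3.74), the complement protease MASP1 (-3.28) and LRRN3 (-3.26). TGFB2 gave -3.70. Its day 2 level was low, at 0.0685 and 0.397 CPM in WT and 0.80 and 0.531 CPM in ZEB2 shRNA cells, with a log2 fold change of 1.80 at day 2, which did not pass (adjusted p = 0.39), and -1.85 at day 6.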

How the results depend on the processing

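The 76 calls at day 6 (39 higher, 37 lower) became 1810 (933 and 877) at 5% FDR with no fold threshold and 329 (165 and 164) at 4-fold and 10% FDR. With 1 library left out they ranged from 49 to 77 in all, from 22 to 44 higher and from 16 to 33 lower. Of the 76, 47 were also called without WT replicate 1, 53 without WT replicate 2, 38 without ZEB2 shRNA replicate 1 and 45 without ZEB2 shRNA replicate 2. The other settings gave 66 to 98 calls, and the fit of 30 libraries shared 64 of its 81, DESeq2 67 of its 74 and the fit with no filter on low counts 76 of its 98. The log2 fold change of ZEB2 ranged from -0.81 to -0.73 with 1 library left out, and in the fit of 30 libraries it was -0.77 and missed the threshold (adjusted p = 0.108). The cause was not tested. The difference between days gave 39 genes (27 more positive and 12 more negative at day 6), and from 31 to 45 with 1 library left out (22 to 31 and 9 to 16). Replicate numbers did not pair the samples, with correlations of their deviations between -0.0852 and 0.0469. With the replicate number as a block, the calls at day 6 were 66 (34 higher, 32 lower), the difference between days gave 36 genes (27 and 9), and ZEB2 kept its call (adjusted p = 0.0029). The scaling of the libraries moved the median over all genes by at most 0.0195. With 2 libraries a group, and 13806093 counts in the shallowest, small changes of low genes could not be detected.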

Other observations

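Matrix genes were rearranged without a common direction. Of 51 collagen and matrix genes 6 rose and 10 fell, with a median log2 fold change of -0.04. COL14A1, a fibril-associated collagen, fell from 4.16 and 9.60 CPM in WT to 1.38 and 1.76 CPM in ZEB2 shRNA cells. COL14A1 did not pass without WT replicate 2 or ZEB2 shRNA replicate 1 (adjusted p = 0.0635 and 0.108). The matrix genes that fell came to 4 without ZEB2 shRNA replicate 1 and 2 without ZEB2 shRNA replicate 2, and those that rose to 10 without WT replicate 2 and 3 without ZEB2 shRNA replicate 1. Of 26 glycolysis and hypoxia genes 2 rose and 6 fell (median -0.10), with the glucose transporter SLC2A3 at 1490 and 1727 CPM in WT and 3648 and 3794 CPM in ZEB2 shRNA cells (1.21 ± 0.11). The kinase PDK1, which restrains pyruvate oxidation, fell by 1.03 and the muscle enolase ENO3 by 0.91 on the log2 scale. Of these genes 1 rose without WT replicate 1 or either ZEB2 shRNA library, and 3 fell without ZEB2 shRNA replicate 2.

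Of 24 imprinted genes 1 rose and 3 fell, a share of 16.7% beside 11% of all genes tested. The noncoding RNA H19 fell from 273 and 453 CPM to 93.6 and 115 CPM (-1.81 ± 0.20) and PEG3 from 20.8 and 28.4 CPM to 4.06 and 5.73 CPM (-2.38 ± 0.24), while NNAT rose by 1.00. Of 27 interferon-stimulated genes 2 rose and 4 fell: IFIT1, which binds viral RNA, went from 53.2 and 49 CPM to 11.1 and 9.48 CPM, and IFITM1 from 28.1 and 29.3 CPM to 69.8 and 64.1 CPM. The interferon genes that fell came to 2 without WT replicate 1 or ZEB2 shRNA replicate 2 and to 1 without ZEB2 shRNA replicate 1, which also left 1 that rose. Immediate early and stress genes gave 3 higher and 0 lower of 22, a share of 13.6% beside 11% of all genes tested. IER3 (1.39 ± 0.17) led the 3, and fewer rose without WT replicate 1 or ZEB2 shRNA replicate 2. Among 11 neural crest genes 1 rose, the endothelin receptor EDNRB (0.92 ± 0.16), a share of 9.09% beside 11% of all genes tested. Intermediate and lateral mesoderm genes gave 1 higher (EYA1) and 1 lower (PDGFRA) of 12, a share of 16.7% beside 11% of all genes tested. Neither call held without either ZEB2 shRNA library. PDGFRA also did not pass without WT replicate 1, nor EYA1 without WT replicate 2. Of 5 paraxial and skeletal muscle genes 0 passed by edgeR or DESeq2, with 2 at an unadjusted p under 0.05 by edgeR. By edgeR 11% of all genes tested passed, so 0 of so few genes is little evidence.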
